A study of Mus musculus with 24 samples.

Results

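Lymphocytes reach the small intestine with the help of a small set of guidance and adhesion molecules, and 4 genes of this set were followed in the terminal ileum of mice given antibiotics early in life. The set was defined by name as Ccl25, Ccr9, Ccr10, Itga4, Itgae and Itgb7. Of these 6 genes, 4 had values among the 547 genes of the table, namely the chemokine Ccl25, the chemokine receptors Ccr9 and Ccr10 and the integrin chain Itga4. Itgae and Itgb7 were not analysed here. The study asked whether 1 early macrolide course changes the host as repeated courses do. Nursing C57BL/6 pups received tylosin, a macrolide antibiotic, through the milk of treated dams. The PAT1 group (pulsed antibiotic treatment) had that course alone, and the PAT3 group had 3 courses in all, the later ones after weaning. Control mice had none. Ileal RNA was taken at week 7 from 7 mice of the Control group and 7 of PAT1, each with 4 males and 3 females, and from 10 of PAT3, with 4 males and 6 females. These groups are those of the sample labels. The study's figure legend for this assay gives PAT1 a mouse more and PAT3 a mouse fewer, so that the group of a mouse may differ there. Each litter went to 1 group as a whole and cages were set by sex and treatment, so that litter and cage cannot be told apart from treatment.

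CCL25 is made by the epithelium of the small intestine and binds CCR9, a receptor that T cells and IgA-producing cells primed in gut-associated lymphoid tissue carry. CCR10 binds CCL27 and CCL28 and is borne by IgA plasma cells and by some skin-homing T cells. ITGA4 pairs with ITGB7 to form the receptor for MAdCAM-1 on gut venules, or with ITGB1 to form the receptor for VCAM-1, and is present on many leukocytes. ITGAE pairs with ITGB7 and holds intraepithelial lymphocytes to E-cadherin.

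The sequence before a start site of Ccl25, the chemokine that rose, and that of Ccr9, its receptor, are shown because the ligand and the receptor moved in opposite directions in PAT3. Capitals mark TTTAT or its reverse complement ATAAA, the core that CDX factors of the intestinal epithelium bind, and AGGTCA, a half-site of retinoid receptors. GGAAA, the core for NFAT factors, was searched as well, and each motif was searched on both strands. The windows are the 250 bases before the start, from RefSeq, GRCm38.p6, on the + strand.
Ccl25, chr8:4349338-4349587: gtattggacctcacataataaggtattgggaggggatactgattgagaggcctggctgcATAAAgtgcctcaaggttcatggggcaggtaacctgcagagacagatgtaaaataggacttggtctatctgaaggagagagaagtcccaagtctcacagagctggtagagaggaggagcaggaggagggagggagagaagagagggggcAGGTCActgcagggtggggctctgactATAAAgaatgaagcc
Ccr9, chr9:123766961-123767210: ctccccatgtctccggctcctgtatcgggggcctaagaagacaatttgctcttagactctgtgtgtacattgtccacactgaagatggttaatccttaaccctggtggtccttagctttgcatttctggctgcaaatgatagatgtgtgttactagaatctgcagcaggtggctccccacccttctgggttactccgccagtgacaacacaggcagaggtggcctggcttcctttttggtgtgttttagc
The Ccl25 window held 2 CDX cores, which began 191 and 15 bases before the start, and 1 retinoid half-site at 42 bases. The core at 15 bases lay inside TATAAA, and TATAAA was present in 7.59% of 32851 RefSeq windows of the same length. The CDX core was present in 37.3% of those windows, the retinoid half-site in 14.0% and the NFAT core in 55.6%. The Ccr9 window held none of these motifs, nor did the window of Itga4 or that of a second Ccl25 start, at chr8:4324960-4325209. Which start was used in the ileum was not measured, and a match of letters is not a binding site.

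The values were log2 normalized nCounter counts, that is, counts of colour-coded probe pairs divided by 1 size factor per sample. Totals ranged from 171671 to 782392 counts per sample with a median of 580162. PAT1 replicates 1 and 3 and PAT3 replicate 7 held fewer than 300000 counts, and results are given with and without these 3 samples where a call changed. The enterocyte list, 5 genes of the absorptive epithelium, summed to between 13683 and 57865 normalized counts per mouse with no gene at 0 in any mouse. Probes differ in efficiency, so levels are compared between mice and not between genes. In bulk tissue, fewer cells of a type and less RNA per cell cannot be told apart.

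Ccl25 was higher after either regimen. In Control mice it had a lowest value of 12.19, a median of 13.32 and a highest of 13.63 on the log2 scale. In PAT1 mice these were 13.99, 14.18 and 14.73, and in PAT3 mice 13.14, 13.95 and 14.31. Every PAT1 mouse and 9 of 10 PAT3 mice lay above the highest Control mouse, and PAT3 replicate 5 alone lay within the Control range. Among all genes, 2.38% had PAT1 values that were all above Control, and 2.01% had PAT3 values that were. Control mice averaged 13.10 ± 0.52 (SD, n = 7), PAT1 mice 14.23 ± 0.26 (SD, n = 7) and PAT3 mice 13.90 ± 0.31 (SD, n = 10). Ccl25 rose by 1.13 on the log2 scale in PAT1 (SE 0.20, 95% CI 0.72 to 1.55, adjusted p = 0.000343), a 2.20-fold difference, and by 0.81 in PAT3 (SE 0.18, 95% CI 0.43 to 1.19, adjusted p = 0.00154), a 1.75-fold difference. Ccl25 took 1.67% ± 0.351 (SD, n = 7) of all panel counts in Control mice, against 3.73% ± 0.664 (SD, n = 7) after PAT1 and 3.08% ± 0.584 (SD, n = 10) after PAT3. With median counts of 8351, 18110 and 17496 in the 3 groups, counting error was at most 1.09%, far below the spread between mice. Leaving out any 1 mouse kept both calls, with differences from 0.98 to 1.22 in PAT1 and from 0.66 to 0.90 in PAT3.

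**Figure D1:**
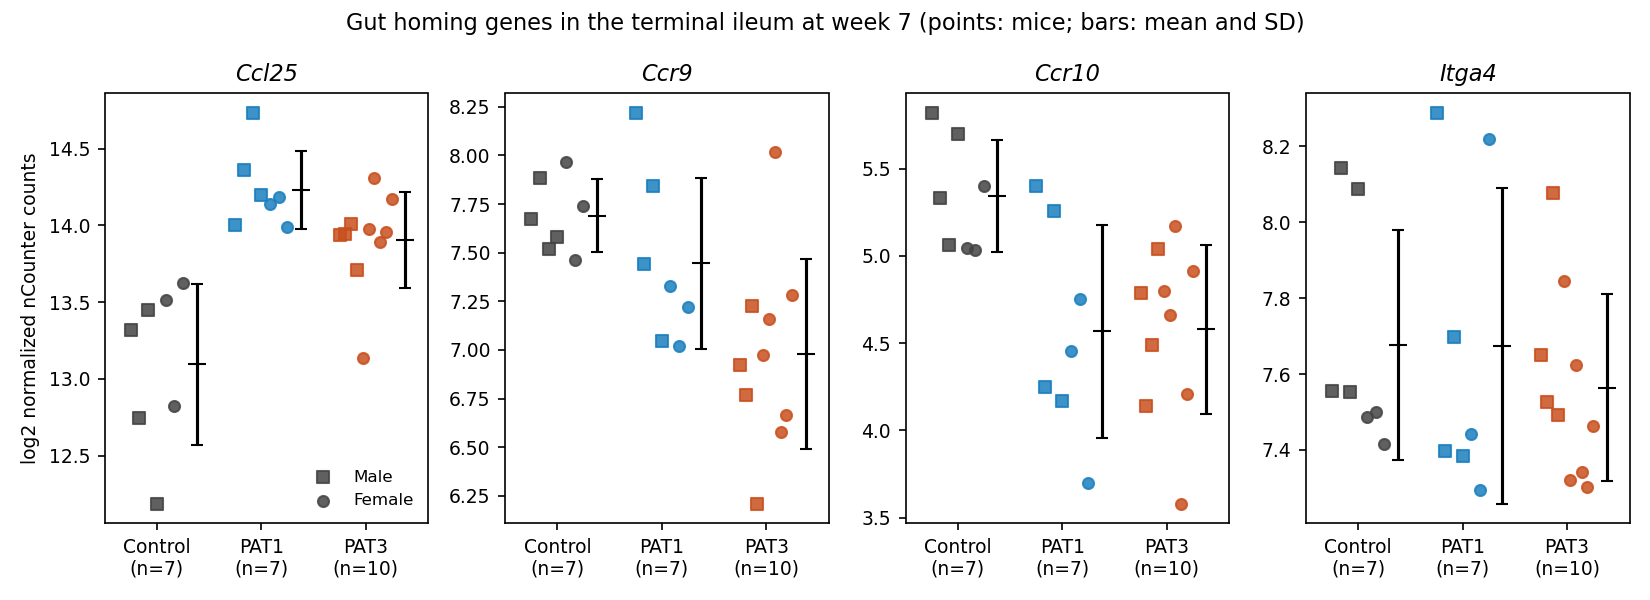
Log2 normalized nCounter counts of the 4 genes in each mouse (squares, males; circles, females) by group, with the group mean and SD as bars. Each panel has its own axis. All 7 PAT1 mice lay above all Control mice for Ccl25, 9 of 10 PAT3 mice lay below all Control mice for Ccr9, and the groups overlapped for Itga4.

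Ccr9, the receptor for CCL25, went the other way in PAT3. Control mice had a lowest value of 7.46, a median of 7.68 and a highest of 7.97, and PAT3 mice had 6.21, 6.95 and 8.02. In PAT3, 9 of 10 mice lay below the lowest Control mouse, and the exception, replicate 7, lay above the highest and was also the PAT3 sample with the fewest counts. Values lying wholly below Control were seen in 7.31% of genes in PAT3, and Ccr9 was not one of them. The level was 7.69 ± 0.19 (SD, n = 7) in Control and 6.98 ± 0.49 (SD, n = 10) in PAT3. Ccr9 fell by 0.71 on the log2 scale (SE 0.20, 95% CI -1.12 to -0.30, adjusted p = 0.00757), which is 38.9% lower. The difference was -0.82 (adjusted p = 9.03e-05) without the 3 samples of low count, and -0.53 with the call lost under quantile normalization (adjusted p = 0.0663).

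In PAT1 the lowest value of Ccr9 was 7.02, the median 7.33 and the highest 8.22. Of 7 PAT1 mice, 5 lay below all Control mice and 1, replicate 1, lay above all of them, so the group spanned the Control range. The mean of 7.45 ± 0.44 (SD, n = 7) differed from Control by -0.24 (SE 0.22, 95% CI -0.69 to 0.20, adjusted p = 0.477) and did not pass the test. The 2 highest PAT1 values belonged to replicates 1 and 3, the PAT1 samples with the fewest counts. Without the 3 samples of low count the difference was -0.48 (adjusted p = 0.0370), and with the size factor as a covariate it was -0.50 (adjusted p = 0.0442). The part of depth in these values was not tested further. The SD of Ccr9 was 2.35 times that of Control in PAT1 and 2.62 times in PAT3, whereas counting error at the median was between 6.70% and 8.61%.

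Ccr10 was lower after either regimen and gave the fewest counts of the 4, with a median count of 42 in the Control group, 20 after PAT1 and 27 after PAT3. Control mice had a lowest value of 5.04, a median of 5.33 and a highest of 5.82. PAT1 mice had 3.70, 4.46 and 5.40, and PAT3 mice had 3.58, 4.72 and 5.17. Below the lowest Control mouse lay 5 of 7 PAT1 mice and 8 of 10 PAT3 mice, and no treated mouse exceeded the highest Control mouse. Values lying wholly below Control were seen in 3.84% of genes in PAT1, and Ccr10 was not among them in either group. Ccr10 fell from 5.34 ± 0.32 (SD, n = 7) to 4.57 ± 0.61 (SD, n = 7) in PAT1, by 0.77 (SE 0.25, 95% CI -1.29 to -0.26, adjusted p = 0.0295), or 1.71-fold. It fell to 4.58 ± 0.48 (SD, n = 10) in PAT3, by 0.76 (SE 0.23, 95% CI -1.24 to -0.29, adjusted p = 0.0129), or 1.70-fold.

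At the median of Ccr10, counting error came to 15.4% for Control mice, 22.4% for PAT1 and 19.2% for PAT3. The PAT1 call was lost when Control replicate 1 or 4 or PAT1 replicate 2, 4 or 7 was left out, with adjusted p between 0.0600 and 0.0724, and under the methods' test of aov with TukeyHSD (adjusted p = 0.106). Those PAT1 mice had the lowest Ccr10 values of PAT1, and they also stood apart in the B cell and follicle genes described below. Both calls were lost when each sample was re-centred on its median gene, with differences of -0.63 in PAT1 (adjusted p = 0.106) and -0.57 in PAT3 (adjusted p = 0.0725).

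Itga4 did not differ between groups beyond the spread between mice. Its lowest, median and highest values were 7.41, 7.55 and 8.14 in Control, 7.29, 7.44 and 8.29 in PAT1 and 7.30, 7.51 and 8.08 in PAT3. In each group a few mice stood above the rest, and the 3 ranges overlapped over nearly all their length. Control mice averaged 7.68 ± 0.30 (SD, n = 7), PAT1 mice 7.67 ± 0.42 (SD, n = 7) and PAT3 mice 7.56 ± 0.25 (SD, n = 10). The difference was -0.0029 in PAT1 (95% CI -0.36 to 0.36, adjusted p = 0.992) and -0.11 in PAT3 (95% CI -0.45 to 0.22, adjusted p = 0.599). At these sample sizes a fall of more than 0.45 or a rise of more than 0.36 on the log2 scale lay outside both intervals.

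Thus 2 of 4 genes passed the test in PAT1, where 18.5% of all 547 genes did, and 3 of 4 in PAT3, where 31.8% did. By direction, Ccl25 was among the 7.31% of genes called higher in PAT1 and the 13.9% called higher in PAT3, and its difference ranked 14 from the top in PAT1 and 19 in PAT3. The genes called lower made up 11.2% in PAT1 and 17.9% in PAT3. Both comparisons used the same Control mice. The median gene of a sample lay 0.14 lower in PAT1 and 0.19 lower in PAT3 than in Control on the log2 scale. Relative to it, the differences in PAT1 and PAT3 were 1.28 and 1.0 for Ccl25, -0.10 and -0.52 for Ccr9, -0.63 and -0.57 for Ccr10, and 0.14 and 0.078 for Itga4, whose sign turned. Among all 3 groups, Ccl25 (adjusted p = 0.000243), Ccr9 (adjusted p = 0.0180) and Ccr10 (adjusted p = 0.0191) passed the F-test, as did 34.6% of all genes, and Itga4 did not (adjusted p = 0.776).

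**Figure D2:**
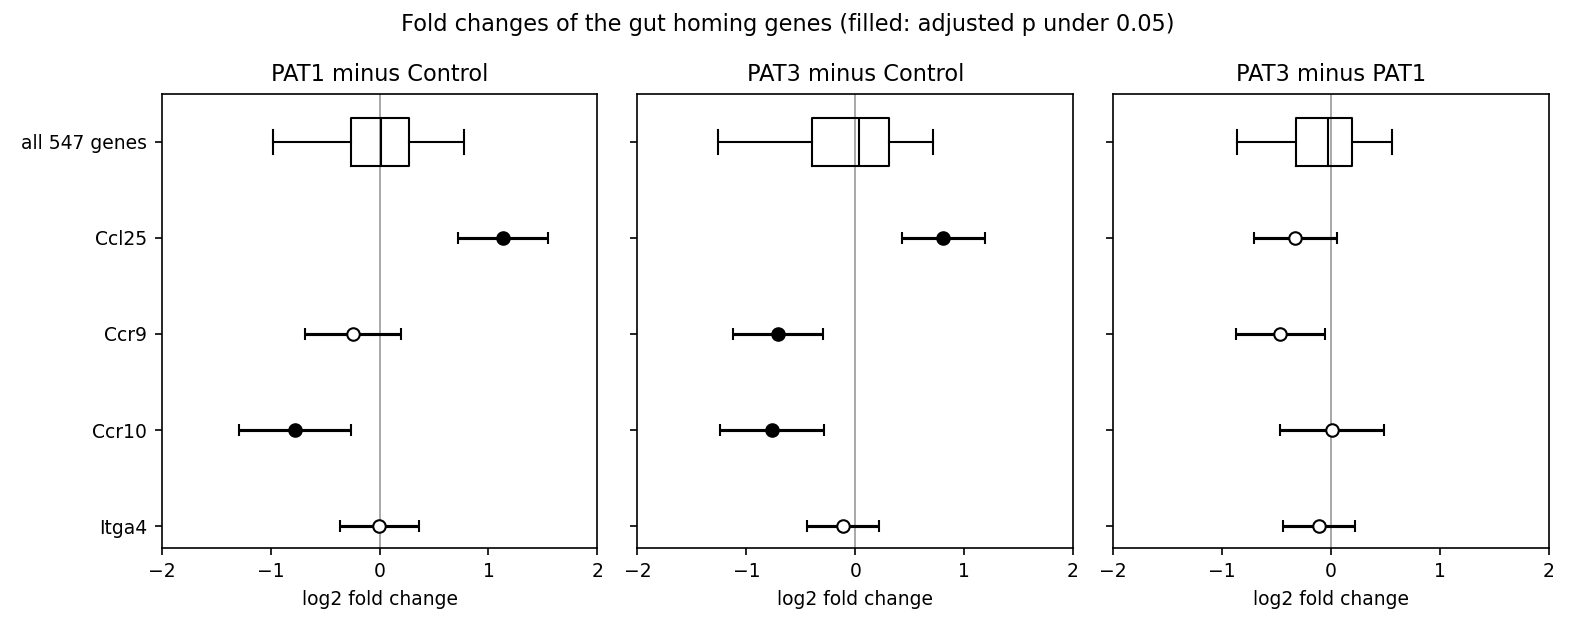
Log2 fold changes of the 4 genes with 95% confidence intervals in each comparison (filled circles, adjusted p under 0.05), below a box plot of all 547 genes (line, median; box, quartiles; whiskers, 5th and 95th percentiles). Ccl25 lay to the right of 0 and Ccr10 to the left in both comparisons with Control, and none of the 4 passed the test between PAT3 and PAT1.

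No gene of the set differed between PAT3 and PAT1 after adjustment, a comparison in which 4.2% of all genes did, 1.46% higher and 2.74% lower in PAT3. That background of 23 genes was unstable, being 0 under the methods' test and without any of 12 single mice, and 102 without PAT3 replicate 7. For Ccl25 the difference was -0.33 (95% CI -0.70 to 0.05, adjusted p = 0.251), with 7 of 10 PAT3 mice below the lowest PAT1 mouse. For Ccr9 it was -0.47 (95% CI -0.87 to -0.06, unadjusted p = 0.0276, adjusted p = 0.124), with 6 of 10 PAT3 mice below the lowest PAT1 mouse. The order of Ccr9 was Control, PAT1, PAT3 from high to low, and neither neighbouring step passed the test. Without PAT3 replicate 7 the Ccr9 difference was -0.58 and passed (adjusted p = 0.0250). For Ccr10 the difference was 0.01 (95% CI -0.47 to 0.49, adjusted p = 0.989) and for Itga4 it was -0.11 (adjusted p = 0.691). The intervals left room for differences of either sign in Ccr10 and Itga4.

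Sex was unequal in PAT3, so each gene was compared between the sexes. With treatment in the fit, females minus males differed by 0.05 for Ccl25 (adjusted p = 0.938), 0.02 for Ccr9 (adjusted p = 0.980), -0.25 for Ccr10 (adjusted p = 0.704) and -0.20 for Itga4 (adjusted p = 0.657), where 0.366% of genes passed. The Ccl25 rise was 1.40 in males (adjusted p = 0.00750) and 0.78 in females (adjusted p = 0.175) for PAT1, and 0.98 (adjusted p = 0.0203) and 0.58 (adjusted p = 0.175) for PAT3. Control females averaged 13.32 ± 0.44 (SD, n = 3) and Control males 12.93 ± 0.58 (SD, n = 4). The difference of the effect between the sexes itself did not pass the test for Ccl25 (adjusted p = 0.584), Ccr9 (adjusted p = 0.455), Ccr10 (adjusted p = 0.830) or Itga4 (adjusted p = 0.809), with 3 to 6 mice per cell of the design. In the fit with sex the comparisons with Control kept their calls.

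Of 19 other genes of homing and retention listed, 9 were measured, and 1 was called in either comparison with Control. Of all genes, 18.5% were called in PAT1, 31.8% in PAT3 and 4.2% between PAT3 and PAT1. The 1 of 9 is below that background in both comparisons with Control. Their median difference was 0.10 in PAT1, -0.40 in PAT3, where 7 of 9 were below 0, and -0.55 between PAT3 and PAT1, where Cd69 alone was called, against medians of 0.01, 0.03 and -0.03 over all genes. PAT1 mice were widely spread, with list means from 5.43 to 7.72 (SD 0.82), against an SD of 0.28 in Control and 0.17 in PAT3. In PAT1 Gpr183, an oxysterol receptor that positions lymphocytes, was called higher by 0.71 (adjusted p = 0.0324), and in PAT3 Cd69, which retains lymphocytes in tissue, fell by 0.68 (adjusted p = 0.00572). Vcam1, a ligand of integrins with the ITGA4 chain, differed by -0.15 in PAT1 and -0.18 in PAT3 (adjusted p = 0.652 and 0.471), and Itgb1, a partner chain of ITGA4, by -0.25 and 0.21 (adjusted p = 0.421 and 0.396).

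Among 17 other chemokine receptors in the table, Cxcr6 and Ccr4 were called lower after either regimen, and Ccrl1 alone was called higher, after PAT3, against 11.2% of all genes called lower in PAT1 and 17.9% lower and 13.9% higher in PAT3. The 2 of 17 called lower are near or below that background. The median difference of the receptors was 0.05 in PAT1 and -0.17 in PAT3. Cxcr6, which marks tissue T and innate lymphoid cells, fell by 0.61 in PAT1 (adjusted p = 0.00502) and by 0.76 in PAT3 (adjusted p = 0.000175). Ccr4, a receptor of skin-homing and type 2 T cells with very low counts here, fell by 1.09 and 1.06 (adjusted p = 0.0124 and 0.00517). Ccrl1, a scavenging receptor that also binds CCL25, rose in PAT3 by 0.75 (adjusted p = 0.00615) and differed in PAT1 by 0.25 (adjusted p = 0.470).

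Of 14 other integrin chains and ligands, Itgam alone was called in PAT1 and 3 were called in PAT3, below the 18.5% and 31.8% of all genes called, with medians of -0.18 and -0.06. Itgam, the myeloid chain, fell by 0.92 and 0.68 (adjusted p = 0.000865 and 0.00353). Itgal, the lymphocyte chain that binds ICAM-1, fell in PAT3 by 0.97 (adjusted p = 3.69e-05), and Fn1, a matrix ligand, rose by 0.61 (adjusted p = 0.0363). TGF-beta induces Itgae, and of 10 genes of its pathway 2 rose and 1 fell in PAT1, and 6 rose and 1 fell in PAT3, with medians of 0.06 and 0.46, against 7.31% and 13.9% of all genes called higher. Runx3, a transcription factor that acts in this pathway in CD8 T cells, was the one that fell, by 0.62 and 1.04 (adjusted p = 0.0136 and 2.25e-05). Smad5 rose by 0.45 and 0.67 (adjusted p = 0.0393 and 0.000776). Smad3 differed by 0.44 in PAT1, which was not called, and rose by 0.63 in PAT3 (limma adjusted p = 0.0536 and 0.00187).

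Genes that mark the lymphocytes able to carry these receptors were among those called lower. Of 13 T cell genes, 3 were called lower in PAT1 and 9 in PAT3, with medians of -0.43 and -0.84, and none was called higher. Of all genes, 11.2% were called lower in PAT1 and 17.9% in PAT3, which is the background for the lymphocyte and plasma cell lists. Their summed level was 1135 to 1322 normalized counts in Control, 715 to 1482 in PAT1 and 514 to 847 in PAT3. Cd8a fell by 0.94 and 1.84 (adjusted p = 0.00571 and 6.32e-07). Of 14 cytotoxic and intraepithelial lymphocyte genes, 6 and 8 were called lower, with medians of -0.31 and -0.55, and their summed level was 2265 to 4826 in Control, 1079 to 3034 in PAT1 and 721 to 2531 in PAT3.

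Of 7 genes of plasma cells and IgA transport, 2 were called lower in PAT1 and 6 in PAT3, with medians of -0.55 and -0.90. Tnfrsf17, the survival receptor of plasma cells, fell by 0.88 and 1.19 (adjusted p = 0.00359 and 3.06e-05). Pigr, the epithelial carrier of IgA, fell by 1.32 and 0.90 (adjusted p = 0.00321 and 0.0166), and the summed level of the list, which it dominated, was 40805 to 67451 in Control, 13875 to 36711 in PAT1 and 13321 to 40084 in PAT3. The B cell and follicle list had 1 gene of 14 called higher in PAT1 and 1 lower in PAT3, with medians of 0.72, where 12 of 14 were above 0, and -0.31, and a median of -1.24 with 2 called lower between PAT3 and PAT1. Its summed level reached 7340 in PAT1 against at most 2373 in Control and 1866 in PAT3. PAT1 replicates 7, 2 and 4 stood apart, with list means 2.12, 1.08 and 0.79 above that of their group. These mice also had the lowest Ccr10 values of PAT1, at 3.70, 4.25 and 4.17. Ccr10 ran against this list within PAT1 (r = -0.78) but not in Control (0.44) or PAT3 (0.27), and over all mice the relation did not pass. With the list as a covariate the Ccr10 call in PAT1 was lost, and the part of follicle content in the Ccr10 values was not tested. Of the 5 enterocyte genes, 1 was called higher and 1 lower in either comparison. Their median differences were 0.71 in PAT1 and 0.36 in PAT3, with 4 of 5 above 0 in each. Btnl1 was called higher in PAT1, by 0.94 (adjusted p = 0.0194), and Abcb1a in PAT3, by 1.01 (adjusted p = 0.0217). Ceacam1 was the lower one in both, by 1.26 and 1.05 (adjusted p = 0.00287 and 0.00377). The dendritic cell list had Irf8 alone called, lower in both, of 7 genes. Of 10 type 3 lymphocyte genes, Lta rose and Il17a fell in PAT1, and Kit rose and 3 others fell in PAT3. The background for these counts was 7.31% of all genes called higher in PAT1 and 13.9% in PAT3. Called lower were 11.2% in PAT1, 17.9% in PAT3 and 2.74% between PAT3 and PAT1. No gene of these lists was at 0 in any mouse.

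The falls of Ccr9 and Ccr10 were also set beside these lists. With the mean log2 value of the T cell list as a covariate, Ccr9 differed by 0.080 in PAT1 (adjusted p = 0.848) and by -0.014 in PAT3 (adjusted p = 0.981). In the same fit Ccr10 differed by -0.82 in PAT1 (adjusted p = 0.0559) and by -0.87 in PAT3 (adjusted p = 0.249), about as large as without the covariate and not called. Subtracting that mean from each value instead raised every gene by the fall of the list, which averaged 6.21 ± 0.08 (SD, n = 7) in Control mice and 5.28 ± 0.30 (SD, n = 10) in PAT3 mice, so that the signs on this scale say nothing of a gene alone. On it Ccr9 differed by 0.19 and 0.22 in PAT1 and PAT3, Ccr10 by -0.34 and 0.16, and Itga4 by 0.43 and 0.81. With the plasma cell and IgA list as a covariate Ccr9 differed by 0.89 in PAT1 (adjusted p = 0.0266) and 0.84 in PAT3 (adjusted p = 0.147), and Ccr10 by -0.040 and 0.23. Both lists themselves differed between the groups, and the part of cell numbers in the Ccr9 and Ccr10 results was not tested. For Ccl25, the enterocyte list as a covariate left a rise of 1.02 in PAT1 (adjusted p = 9.77e-05) and of 0.74 in PAT3 (adjusted p = 0.000418). The genes of that list moved in both directions, and within PAT1 mice Ccl25 hardly followed it (r = 0.20). The part of enterocyte content in the Ccl25 rise was not tested.

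**Figure D3:**
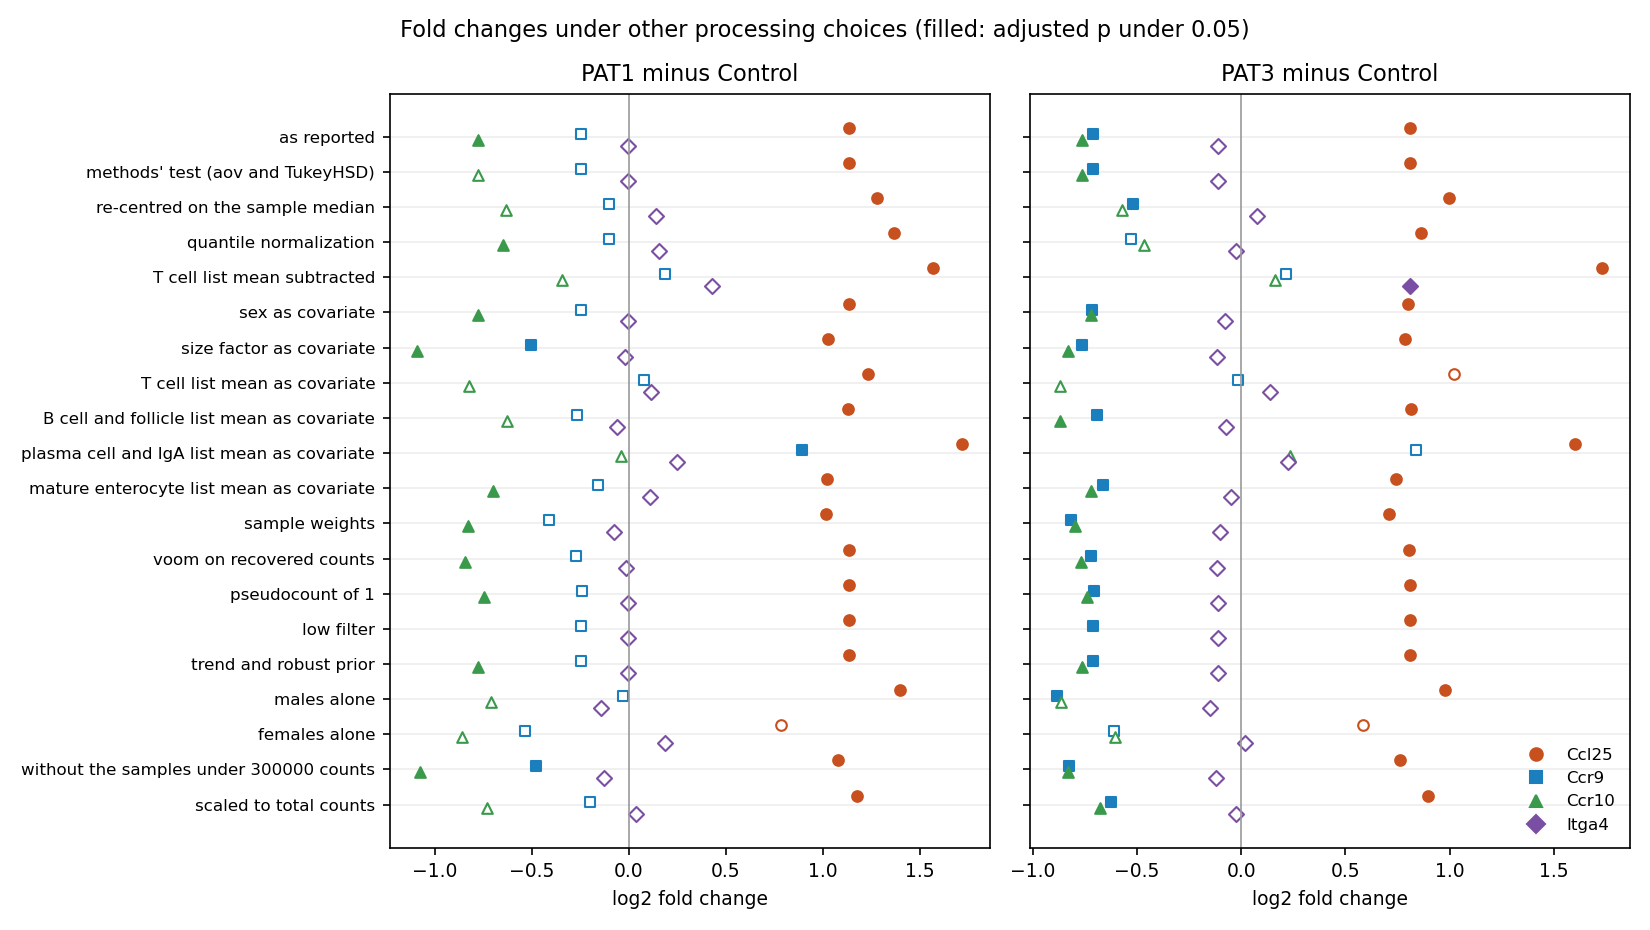
Log2 fold changes of the 4 genes against Control as reported and under 19 other processing choices (filled, adjusted p under 0.05; the low filter removed genes with a mean log2 value under 5, Ccr10 among them). Ccl25 stayed above 0 throughout, whereas Ccr9 and Ccr10 lay at or above 0 in PAT3 once the T cell list was subtracted, which moved every gene up, or the plasma cell and IgA list entered as a covariate.

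Mice of 1 group also differed from each other, and these differences were related after the group means had been subtracted (24 mice). Ccr9 followed the plasma cell and IgA list (r = 0.75, adjusted p = 0.00252, rho = 0.70, adjusted p = 0.00924, permutation test, 28 relations of genes and lists), with r = 0.57 in Control, 0.81 in PAT1 and 0.82 in PAT3, and r = 0.54 without the 2 mice farthest from the median. Those were PAT3 replicate 7 and PAT1 replicate 1, both with low counts, and without all 3 samples of low count r was 0.58 and rho 0.65 (permutation adjusted p = 0.0264 and 0.0288, 21 mice). Within PAT3, Ccr9 ran about as closely with the B cell and follicle list (r = 0.80) and the dendritic cell list (0.82), neither of which passed over all mice. Without the samples of low count, r within PAT3 was 0.62 for the plasma cell and IgA list, 0.49 for B cells and follicles and 0.64 for dendritic cells. The relation of Ccr9 to the T cell list did not pass (r = 0.52, rho = 0.47, permutation adjusted p = 0.113 and 0.129), with r = -0.35 among Control mice, 0.16 among PAT1 mice and 0.86 among PAT3 mice. Without the samples of low count it passed by r (0.61, permutation adjusted p = 0.0228) and not by rank (rho = 0.44, permutation adjusted p = 0.167). Ccl25 rose with the enterocyte list by Pearson's r (0.62, permutation adjusted p = 0.0197) but not by rank (rho = 0.42, permutation adjusted p = 0.148), and r was 0.47 without the 2 farthest mice. Control mice alone gave r = 0.96 and PAT3 mice 0.58, whereas PAT1 mice gave only 0.20. Without the samples of low count both passed (r = 0.79, rho = 0.65, permutation adjusted p = 0.00784 and 0.0341). The remaining PAT3 mice then gave r = 0.83 and the remaining PAT1 mice -0.25, so the relation was not seen within PAT1. Ccl25 then also passed with the cytotoxic and intraepithelial lymphocyte list (r = 0.58, rho = 0.68, permutation adjusted p = 0.0120 and 0.00868). By rank alone it then passed with the plasma cell and IgA list (rho = 0.60, permutation adjusted p = 0.0387). By r alone it then passed with the dendritic cell list (r = -0.58, permutation adjusted p = 0.0264). With all mice none of these further relations passed. Itga4 ran against the enterocyte list (r = -0.72, adjusted p = 0.00266, rho = -0.63, adjusted p = 0.0217, permutation test), with -0.92 in Control, -0.73 in PAT1, -0.68 in PAT3 and -0.70 without the 2 farthest mice. It ran with the dendritic cell list by r (0.71, permutation adjusted p = 0.00336) and not by rank (rho = 0.57, permutation adjusted p = 0.0522), and by both without the samples of low count (r = 0.82, rho = 0.65, permutation adjusted p = 0.00672 and 0.0288).

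**Figure D4:**
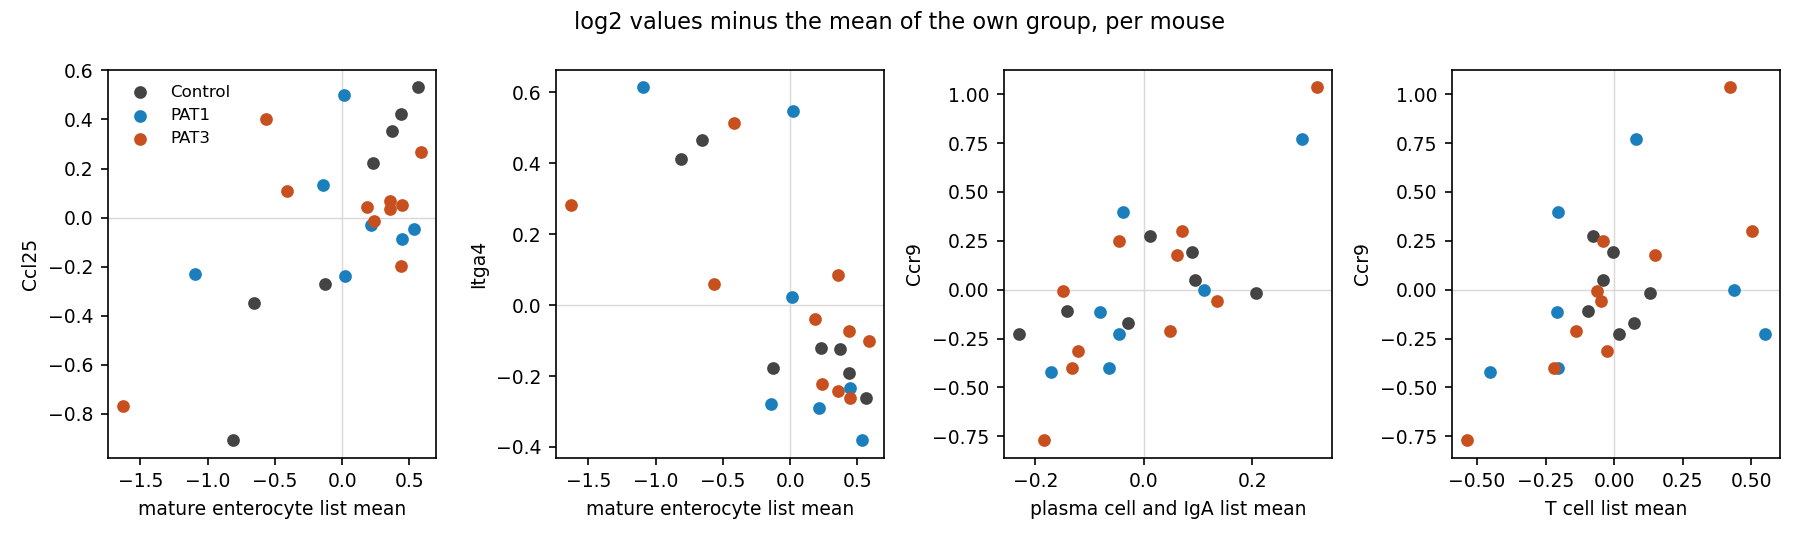
Log2 value of a gene against the mean log2 value of a marker list, each minus the mean of its own group, with 1 point per mouse. Ccr9 rose with the plasma cell and IgA list (r = 0.75) and Itga4 fell with the enterocyte list (r = -0.72). Ccr9 against the T cell list gave r = 0.52 over all mice, which did not pass the permutation test. PAT3 mice alone reached r = 0.86, PAT1 mice 0.16 and Control mice -0.35. Among Control mice the T cell list hardly varied (SD 0.08, whereas PAT1 mice had 0.37 and PAT3 mice 0.30), so their r says little.

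Among the 4 genes themselves none of 6 pairs passed after adjustment. The strongest were Ccr9 with Ccr10 (r = 0.51, rho = 0.52, permutation adjusted p = 0.0722 and 0.0724) and Ccl25 with Itga4 (r = -0.48, rho = -0.33, permutation adjusted p = 0.0722 and 0.135). The first was -0.03 in Control and 0.75 in PAT1, and 0.30 without the 2 farthest mice and 0.098 without the 3 samples of low count. Ccl25 and its receptor Ccr9 had r = 0.30 and rho = 0.43 (permutation adjusted p = 0.153 and 0.0724).

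The genes most like each of the 4 within groups, by Pearson's r over the same 24 mice and out of all 547 genes, are given as a description. For Ccl25 they were Ifngr2 (0.88), Relb (0.86), Cd82 (0.83), Gm10499 (0.80) and Mme (0.79). Mme encodes neprilysin, a brush-border peptidase, and Relb, a subunit of NF-kB, was called higher in PAT1 by 1.20 and in PAT3 by 0.83. For Itga4 they were Itgb2 (0.85), Csf2rb (0.80), Csf1r (0.78), Fcgr2b (0.78) and Il10ra (0.75), of which Itgb2 encodes the shared chain of leukocyte integrins and Csf1r the growth factor receptor of macrophages. For Ccr9 they were Il12rb1 (0.79), Tnfrsf13b (0.77), Foxp3 (0.76), Cxcr1 (0.75) and Irf4 (0.75). Tnfrsf13b and Irf4 belong to the plasma cell list. Median counts were low for Il12rb1 (20), Tnfrsf13b (35), Foxp3 (10) and Cxcr1 (8), and the median of Irf4 was 98. For Ccr10 they were Il12rb1 (0.76), Il27 (0.75), C8a (0.67), Cd28 (0.66) and Eomes (0.63), all with medians between 5 and 31 counts, where depth is shared by the points.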

How the data were processed

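Total RNA of terminal ileum was hybridized to the nCounter GX mouse immunology panel. The authors normalized the counts with DESeq2 and deposited log2 values of 547 genes in 24 samples. Raising 2 to each deposited log2 value gave whole multiples of 1 step per sample for 100% of the values (tolerance 0.01 counts), which returned the counts. Whether background was subtracted, and the version of DESeq2, are not given in the sources used here. The labels name TRIzol with column cleanup for extraction, the methods a Qiagen kit. All 276 pairs of samples differed (lowest chi-square 3.98 per degree of freedom), and no sample was taken as a duplicate. The labels do not name the litter of a mouse, so p-values treat mice as independent.

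Groups and sex came from the labels. The deposited log2 values were fitted with limma 3.58.1 (lmFit and eBayes, R 4.3.3) as 3 group means over 24 samples, with Benjamini-Hochberg adjustment over 547 genes and a threshold of 0.05 for a gene to be called. The fit was tested on simulated data. Correlations used 100000 permutations within groups (NumPy 2.4.6, two-sided). Counting error is 1 over the square root of the median count and covers counting alone. The 4 genes and the marker lists were chosen with earlier results of these data known. Named in the text are the 4 genes, at most 4 called genes of each list with the largest differences, and the 5 genes most like each of the 4; Vcam1 and Itgb1, for their pairing with ITGA4, and Kit were named after their values were seen. The 43 alternatives covered tests, scalings, covariates, filters, sexes alone and each sample left out; leaving out the 3 samples under 300000 counts, for differences and correlations, and scaling to total counts were chosen after seeing the data.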

Additional observations from a re-analysis of the deposited data

Results flagged for a closer look

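Of 12 groups of values (4 genes in 3 groups), 1 held a sample that stood apart by Dixon's test, which flags about 1 in 20 groups by chance. PAT3 replicate 5 had a Ccl25 value of 13.14, and its gap to the next PAT3 mouse was 0.489 of the range of the group. The same mouse had the lowest enterocyte list mean of its group, 1.63 below the group mean on the log2 scale (value -1.63), and its part in the Ccl25 value was not tested. Without this mouse the Ccl25 rise in PAT3 was 0.89 (adjusted p = 0.000313).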

How the results depend on the processing

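No paired analysis was made because each sample belongs to 1 group and the labels name no litter. The labels carry no replicate number, and those used here only name a sample. Of the 4 genes, Ccl25 kept its direction in all 43 alternatives against Control, was called in 18 of 19 alternatives other than left-out samples in PAT1 and 17 of 19 in PAT3, and in all 24 samples left out singly in either. Ccr9 was called in 3 of 19 in PAT1 and 14 of 19 in PAT3, and Ccr10 in 9 of 18 and 11 of 18, since the filter on genes with a mean log2 value under 5 removed it. The PAT1 calls of Ccr9 were not all in 1 direction. The call with the plasma cell and IgA list as a covariate was a rise of 0.89 (limma adjusted p = 0.0266). Itga4 was called in 1 alternative. Counting error at the median was largest for Ccr10, between 15.4% and 22.4%. Causes were not tested. Values that changed side or sign follow, as log2 differences with adjusted p only where called.

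Under the methods' test, Ccr10 in PAT1 was -0.77 and not called, and 0 genes were called between PAT3 and PAT1, where limma called 23 and found 156 at an unadjusted p under 0.05. After re-centring on the sample median, Ccr10 was -0.63 in PAT1 and -0.57 in PAT3, neither called, Itga4 was 0.14 and 0.078, and 57 genes were called between PAT3 and PAT1. Quantile normalization gave Itga4 0.16 in PAT1, and Ccr9 -0.53 and Ccr10 -0.47 in PAT3, neither called. Scaling to total counts gave Ccr10 -0.73, not called, and Itga4 0.040 in PAT1, and 0 genes between PAT3 and PAT1.

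With the T cell list mean subtracted, PAT1 gave 0.19 for Ccr9, -0.34 for Ccr10 (not called) and 0.43 for Itga4, PAT3 gave 0.22, 0.16 and 0.81 (adjusted p = 0.000676), and PAT3 minus PAT1 gave 0.17 for Ccl25, 0.029 for Ccr9 and 0.38 for Itga4. The genes called were then 181 in PAT1, 424 in PAT3, 192 between them and 431 by the F-test, where the subtraction moves every gene by the fall of the list. With that mean as a covariate, PAT1 gave 0.080 for Ccr9, -0.82 for Ccr10 (not called) and 0.11 for Itga4, PAT3 gave 1.02 for Ccl25, -0.014 for Ccr9 and -0.87 for Ccr10, none called, and 0.14 for Itga4, and PAT3 minus PAT1 gave -0.046 for Ccr10 and 0.024 for Itga4. It called 9 genes in PAT3, 0 between PAT3 and PAT1 and 65 by the F-test. The B cell and follicle list as a covariate gave Ccr10 -0.63 in PAT1 (not called) and -0.24 in PAT3 minus PAT1, with 0 genes called in the latter. The plasma cell and IgA list gave 0.89 for Ccr9 (adjusted p = 0.0266), -0.040 for Ccr10 and 0.25 for Itga4 in PAT1, and 0.84, 0.23 and 0.23 in PAT3, with 10 genes called in PAT3, 0 between PAT3 and PAT1 and 88 by the F-test. The enterocyte list gave Itga4 0.11 in PAT1 and Ccr10 -0.022 in PAT3 minus PAT1, where 80 genes were called.

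The size factor as a covariate gave Ccr9 -0.50 in PAT1 (adjusted p = 0.0442) and 0 genes between PAT3 and PAT1. Without the 3 samples under 300000 counts, Ccr9 was -0.48 in PAT1 (adjusted p = 0.0370) and Itga4 0.011 in PAT3 minus PAT1. Sample weights called 287 genes in PAT3, 93 between PAT3 and PAT1 and 309 by the F-test, voom 47 and the low filter 48 between PAT3 and PAT1. In males alone, Ccr10 was -0.71 in PAT1 and -0.87 in PAT3, neither called, and -0.15 in PAT3 minus PAT1, Ccr9 was -0.85 in PAT3 minus PAT1 (adjusted p = 0.0357), and 57 genes were called in PAT1 and 129 between PAT3 and PAT1. In females alone, with fewer mice, none was called: Ccl25 was 0.78 and 0.58 in PAT1 and PAT3, Ccr10 -0.86 and -0.60, Itga4 0.18 and 0.016, and Ccr9 -0.61 in PAT3, and the genes called were 23 in PAT1, 57 in PAT3, 0 between PAT3 and PAT1 and 37 by the F-test.

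For female minus male, Ccl25 was -0.029 under quantile normalization, -0.040 with the T cell list subtracted and -0.032 with the enterocyte covariate, and Ccr9 was -0.072 with the T cell list subtracted, -0.051 with it as a covariate and -0.0048 when scaled to total counts. Genes called for sex, 2 as reported, were 0 after quantile normalization, 4 with the B cell covariate, the trend and robust prior or without the low-count samples, 5 with the size factor or T cell covariate, 6 with the low filter, 13 with the enterocyte covariate and 23 with sample weights. The effect by sex, with 1 gene called as reported, gave 2 after re-centring and 0 under 11 alternatives.

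With each sample left out in turn, Ccr10 ranged from -0.91 to -0.63 in PAT1 and from -0.13 to 0.15 in PAT3 minus PAT1, Ccr9 from -0.58 to -0.34 in PAT3 minus PAT1 and from -0.071 to 0.092 for sex, Itga4 from -0.11 to 0.075 in PAT1, and Ccl25 from -0.024 to 0.12 for sex. The genes called ranged from 0 to 102 between PAT3 and PAT1, from 0 to 7 for sex and from 0 to 4 for the effect by sex. Between PAT3 and PAT1 the count was 0 without any of 12 single mice of these groups, 55 without PAT3 replicate 10, 71 and 86 without PAT1 replicates 5 and 6, and 102 without PAT3 replicate 7.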
